A study of Mus musculus with 20 samples.

Results

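The regions described here are the CAP-H2 peaks that were called in wild-type fibroblasts and had no counterpart in Rb1L/L fibroblasts. A peak of the WT CAP-H2 list on chromosomes 1 to 19 was taken when no peak of the Rb1L/L CAP-H2 list lay within 1 kb of it, edge to edge. The set was therefore chosen by the CAP-H2 calls of both genotypes. This gave 10030 of the 42174 WT CAP-H2 peaks on these chromosomes, or 23.8% (95% exact binomial interval 23.4 to 24.2). They are called WT-only CAP-H2 peaks below, and the other 32144 WT peaks, which had an Rb1L/L peak within 1 kb, are called shared. The reverse rule picked out 10028 of 42626 Rb1L/L CAP-H2 peaks, or 23.5%, so that absence from the other list was as common in one direction as in the other. "Only" refers to the calls in 1 library per genotype: no replicate of the CAP-H2 immunoprecipitation is at hand to show how often a second WT library would lack the same peaks.

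The study used chromatin immunoprecipitation with sequencing (ChIP-seq) on mouse embryonic fibroblasts, primary cells grown from C57BL/6 embryos at day E13.5 and fixed while cycling at passage 4. The Rb1L/L cells were homozygous for the L allele of Rb1, which alters the cleft of the retinoblastoma protein pRb that binds LXCXE motifs, and the WT cells were wild type for Rb1. For CAP-D3, CAP-H2 and H3K27me3 both genotypes were fixed with 2 mM EGS, a long protein crosslinker, and then with 1% formaldehyde, and for TFIIIC with 1% formaldehyde alone, so the overlaps with TFIIIC join differently fixed chromatin. CAP-D3 and CAP-H2 had 1 library per genotype, TFIIIC and H3K27me3 had 2, and the 2 subunits and 1 H3K27me3 library of a genotype shared an input. The labels do not say whether the libraries of a pair came from separate cultures, so a p-value between genotypes rests on a spread that may be purely technical. Peak lists cannot check the Rb1 allele itself.

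Condensin II is a ring-shaped complex built on a pair of SMC ATPases, in which CAP-H2 is the kleisin that closes the ring and CAP-D3 is a HEAT-repeat subunit that the related complex condensin I lacks. It compacts and loops chromosomes in mitosis and stays in the nucleus between divisions, where pRb is known to bring it to chromatin through the LXCXE cleft. TFIIIC binds the internal promoters of tRNA genes and other sites, and the antibody used here was raised against its largest subunit. H3K27me3 is the histone mark set by Polycomb repressive complex PRC2. The series title places the study's question in the recruitment of condensin II by pRb, and a WT CAP-H2 peak with none in Rb1L/L is the simplest form such a loss could take in a peak list.

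On chromosomes 1 to 19 the lists held 42626 CAP-H2 peaks in Rb1L/L and 42174 in WT, and 12926 CAP-D3 peaks in Rb1L/L and 17192 in WT. The TFIIIC lists held 286175 and 291040 peaks in Rb1L/L and 195239 and 230951 in WT. The H3K27me3 lists held 43610 and 55620 peaks in Rb1L/L and 24634 and 42944 in WT. A longer list overlaps more of any set of regions, and the read depth of the libraries was not known here. Each binomial interval below covers counting error only, and regions are not replicates of a condition.

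The WT-only CAP-H2 peaks were mostly weak calls. Each peak carries the authors' score, by which the peak caller ranks its peaks, and which starts at 50 in this list. The median score was 83.8 for WT-only peaks and 185 for shared ones, and 114 for the Rb1L/L-only peaks in their own list. A score under 100 was found in 66.0% of WT-only peaks and in 25.6% of shared peaks, while 77 WT-only peaks reached a score of 300 and 3 reached 500. When WT CAP-H2 peaks were ranked by score and parted into 4 classes of equal size, 83 of 10544 peaks (0.787%), 1261 of 10543 (11.96%), 3827 of 10543 (36.3%) and 4859 of 10544 (46.1%) were WT-only, from the highest class to the lowest. Their median width was 646 bp, against 994 bp for shared peaks, and 5.72% of them were wider than 1000 bp, against 49.2% of shared peaks. Score and width come from the list that the rule used, and they are given as a description of the set.

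**Figure D1:**
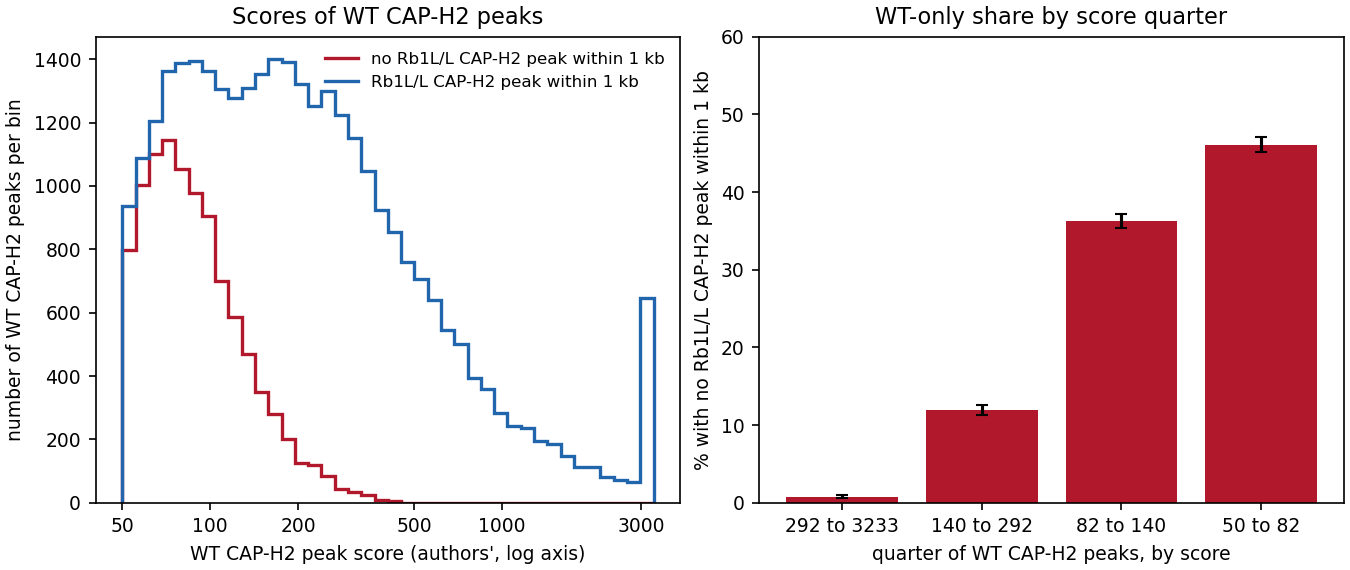
Scores of WT CAP-H2 peaks without (red) and with (blue) an Rb1L/L CAP-H2 peak within 1 kb, as numbers per bin on a log axis (left), and the percentage of WT CAP-H2 peaks without one in each of 4 equal score classes, with 95% exact binomial intervals (right). The red curve lies at low scores, with a median of 83.8 against 185, and the WT-only share was 0.787% in the highest class and 46.1% in the lowest.

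Most WT-only peaks were not near misses of the 1 kb limit. The edge-to-edge gap to the nearest Rb1L/L CAP-H2 peak had a median of 11696 bp, with 5% of the peaks under 1389 bp and 5% over 126191 bp. No Rb1L/L CAP-H2 peak lay within 5 kb of 7043 WT-only peaks, and none within 50000 bp of 1576. For 25.4% of them (24.6 to 26.3) the nearest Rb1L/L CAP-H2 peak was itself one without a WT peak within 1 kb. At the limit itself, the 5 peaks just inside had gaps of 1001 to 1004 bp and scores of 53.16 to 138.65, and the 5 WT peaks just outside had gaps of 999 to 1000 bp and scores of 56.29 to 192.27. The 634 WT-only peaks with gaps of up to 1500 bp had a median score of 75.9, and the 858 shared peaks with gaps above 500 bp had one of 81.2.

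The WT-only peaks stood farther from other WT CAP-H2 peaks than shared peaks did. The median gap to the nearest other WT CAP-H2 peak was 10551.5 bp for WT-only and 5288 bp for shared peaks, and that neighbour was a WT-only peak for 31.1% (30.2 to 32.1) and 18.95% (18.5 to 19.4). In 1 Mb windows with 1 to 5 WT CAP-H2 peaks, 35.3% of the peaks were WT-only, and in windows with over 40 peaks 19.1% were. A WT peak close to a shared one also has an Rb1L/L peak nearby, so the rule itself favours isolated WT peaks. These gaps, neighbours and densities come from the lists that the rule used, and they describe the set. By chromosome the WT-only share was lowest on chromosome 11, at 19.6% (18.2 to 21.1), and highest on chromosome 12, at 25.9% (23.9 to 28.1). Runs of WT-only peaks with gaps of at most 10 kb and no other CAP-H2 peak of either genotype between them numbered 824 and held 1783 of the peaks (17.8%). Of these runs 705 held 2 peaks, and the 2 longest held 5 each, on chromosome 8 from 11345987 to 11368322 (mm9) and on chromosome 6 from 91214542 to 91222007. Neither of those runs had a CAP-D3 peak of either genotype at any of its peaks. Positions follow the mm9 build of the deposited lists and count from 1, and they were not assigned to genes, exons or promoters, since the annotation at hand belongs to another build.

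The majority of WT-only CAP-H2 peaks carried no peak of any other library. None of the 10 other lists had a peak at 5865 of them, or 58.5% (57.5 to 59.4), against 42.7% (42.2 to 43.3) of shared peaks and 59.6% (58.6 to 60.5) of Rb1L/L-only peaks. A further 2966 WT-only peaks (29.6%) were overlapped by TFIIIC in at least 1 library and by neither CAP-D3 nor H3K27me3, against 24.9% of shared and 25.7% of Rb1L/L-only peaks. CAP-D3 was absent from 90.5% of WT-only and 69.0% of shared peaks, which bears on this share. Among WT-only peaks without CAP-D3, TFIIIC lay at 20.7% and 20.9% in Rb1L/L and at 15.5% and 17.3% in WT. Among shared peaks without CAP-D3 it lay at 22.1% and 22.5% in Rb1L/L and at 19.9% and 21.4% in WT. Combinations with CAP-D3 were less frequent at WT-only peaks: CAP-D3 without the other antibodies was found at 493 (4.92%), against 12.3% of shared peaks, and CAP-D3 together with TFIIIC and no H3K27me3 at 376 (3.75%), against 16.3%. H3K27me3 alone was found at 167 WT-only peaks (1.67%), against 0.921% of shared peaks and 1.67% of Rb1L/L-only peaks. All 3 antibodies met at 19 WT-only peaks (0.189%), against 1.68% of shared peaks. An overlap means at least 1 bp in common with the CAP-H2 peak.

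CAP-D3, the subunit that should mark the same complex, was called at few WT-only CAP-H2 peaks in either genotype. The Rb1L/L CAP-D3 list had a peak at 666 of them (6.64%, 6.16 to 7.15), and the WT CAP-D3 list at 812 (8.10%, 7.57 to 8.65). At shared CAP-H2 peaks the shares were 23.4% for Rb1L/L CAP-D3 and 26.1% for WT CAP-D3. Shared peaks are stronger calls, so they were also weighted by score, and shared peaks weighted to the score classes of the WT-only peaks had Rb1L/L CAP-D3 in 13.8% and WT CAP-D3 in 15.8%. The Rb1L/L-only CAP-H2 peaks were nearer to the WT-only than to the shared ones, with Rb1L/L CAP-D3 in 8.95% and WT CAP-D3 in 10.3%. Even WT-only peaks in the highest score class had CAP-D3 in 18.1% (10.5 to 28.0) for Rb1L/L and in 21.7% (13.4 to 32.1) for WT. Both values rest on 83 peaks. Within 10 kb, Rb1L/L CAP-D3 was found for 22.4% of WT-only and 41.1% of shared CAP-H2 peaks, and WT CAP-D3 for 27.1% of WT-only and 46.6% of shared ones. Within 50 kb, Rb1L/L CAP-D3 was found for 55.8% of WT-only and 68.3% of shared peaks, and WT CAP-D3 for 64.3% and 75.4%.

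**Figure D2:**
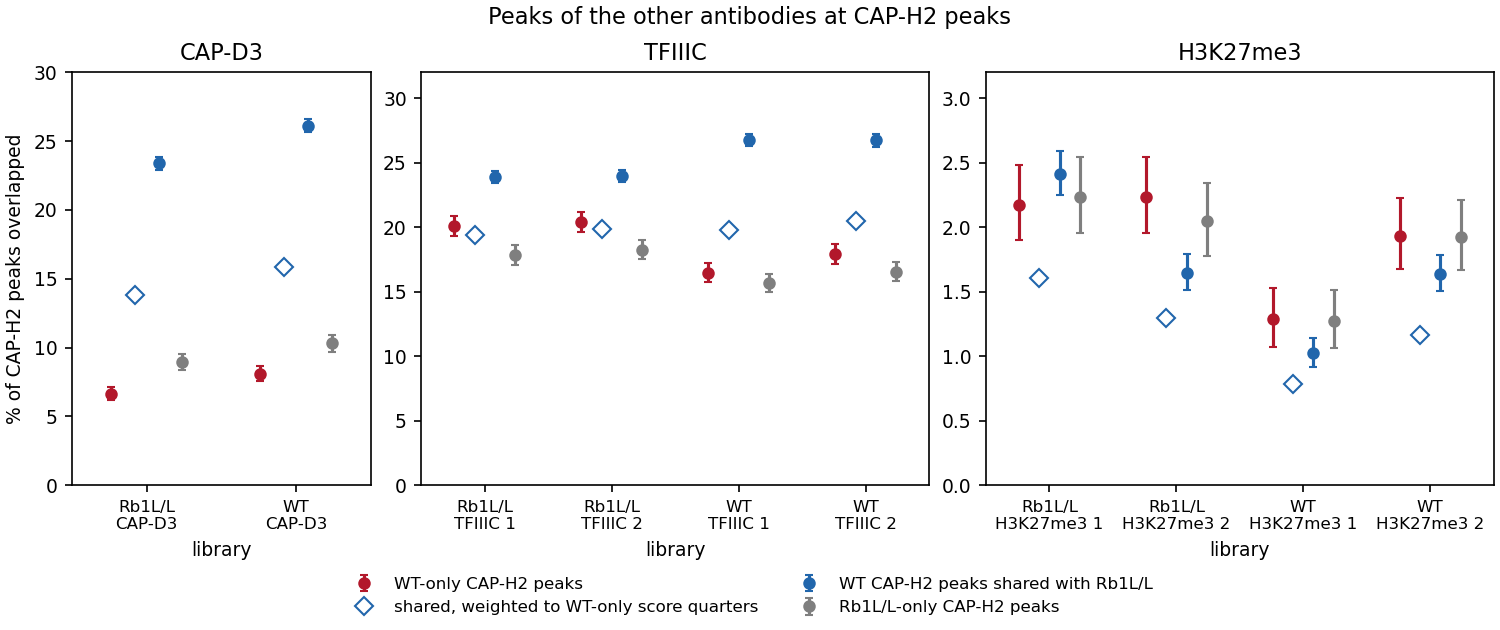
Percentage of CAP-H2 peaks overlapped by a peak of each CAP-D3, TFIIIC and H3K27me3 library, for WT-only peaks (red), shared peaks (blue), shared peaks weighted to the score classes of the WT-only peaks (open diamonds) and Rb1L/L-only peaks (grey), with 95% exact binomial intervals on the filled points and a separate vertical scale for each antibody. CAP-D3 lay at 6.64% and 8.10% of WT-only peaks, below the weighted shared values. H3K27me3 at WT-only peaks lay above the weighted shared values in all 4 libraries. Rb1L/L-only peaks had values close to those of WT-only peaks, but the weighting follows the scores of WT-only peaks and not theirs.

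Where CAP-D3 did accompany a WT-only CAP-H2 peak, it was in most cases called in Rb1L/L as well. Both genotypes had a CAP-D3 peak at 524 WT-only CAP-H2 peaks (5.22%), against a background of 15.4% of all WT CAP-H2 peaks. CAP-D3 was called in Rb1L/L and not in WT at 142 (1.42%), where the background was 4.04%, and in WT and not in Rb1L/L at 288 (2.87%), where it was 6.46%. The set picked for lacking CAP-H2 in Rb1L/L was therefore not one that held many of the CAP-D3 calls lacking there. Of the 812 WT-only CAP-H2 peaks with WT CAP-D3, 64.5% (61.1 to 67.8) also had Rb1L/L CAP-D3, against 71.0% (70.0 to 71.9) of the shared ones. In the other direction, 78.7% (75.4 to 81.7) of the 666 with Rb1L/L CAP-D3 also had WT CAP-D3, against 79.2% of the shared ones. Over all CAP-D3 peaks, 29.5% of the Rb1L/L list had no overlapping WT peak and 46.4% of the WT list no overlapping Rb1L/L peak. Seen from CAP-D3, 5.54% of the WT CAP-D3 peaks with an Rb1L/L CAP-D3 peak within 1 kb lay at a WT-only CAP-H2 peak, 65.8% at a shared one and no WT-only one, and 28.6% at no WT CAP-H2 peak. Of the WT CAP-D3 peaks with no Rb1L/L CAP-D3 peak that near, 281 of 7520 lay at a WT-only CAP-H2 peak (3.74%, 3.32 to 4.19), while 32.6% lay at a shared one and 63.6% at no WT CAP-H2 peak.

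Whether CAP-D3 was called in both genotypes at WT-only CAP-H2 peaks went with its own score. At WT-only CAP-H2 peaks, from the highest to the lowest of 4 equal score classes of the CAP-D3 list, 268 of 268 (100%, 98.6 to 100), 177 of 240 (73.8%), 53 of 172 (30.8%) and 28 of 137 (20.4%) were overlapped by an Rb1L/L CAP-D3 peak. At shared CAP-H2 peaks the shares were 99.7%, 77.8%, 40.5% and 31.0%. Away from WT CAP-H2 peaks they were 99.6%, 64.4%, 12.2% and 9.19%. The WT-only CAP-H2 peaks thus had values between those of the other 2 settings in the lower 3 classes, with intervals that reached the shared value in the second class. CAP-D3 peaks found in both genotypes at WT-only CAP-H2 peaks had a median rank at percentile 75.9 of the WT CAP-D3 list, and those found in WT alone at percentile 33.5.

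**Figure D3:**
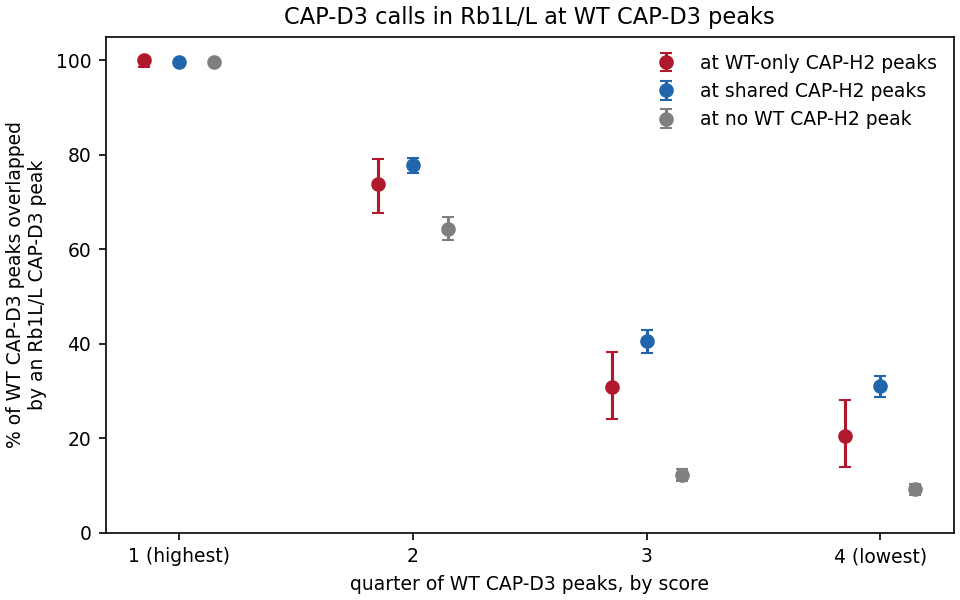
Percentage of WT CAP-D3 peaks overlapped by an Rb1L/L CAP-D3 peak in 4 equal classes of the WT CAP-D3 score, at WT-only CAP-H2 peaks (red), at shared CAP-H2 peaks (blue) and at no WT CAP-H2 peak (grey), with 95% exact binomial intervals. At WT-only CAP-H2 peaks the share was 100% in the highest class and 20.4% in the lowest.

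The strongest WT-only CAP-H2 peaks show these combinations one by one. The highest score, 987.5, belonged to a peak on chromosome 1 from 36752671 to 36754686, which lay 3676 bp from the nearest Rb1L/L CAP-H2 peak. It had TFIIIC peaks with scores of 407.86 and 143.26 in Rb1L/L and of 122.2 and 266.87 in WT, and no CAP-D3 or H3K27me3 peak. The next, on chromosome 2 from 27873773 to 27875933 (score 560.02), also had TFIIIC in all 4 libraries and no CAP-D3. The third, on chromosome 1 from 192752067 to 192753597 (score 533.84), had CAP-D3 with a score of 3100 in both Rb1L/L and WT, and its nearest Rb1L/L CAP-H2 peak was 15949 bp away. A score of exactly 3100 was held by 2474 peaks of the Rb1L/L CAP-D3 list and 2146 of the WT one. It is thus a tied value that does not order these peaks or show equal signal. Of the 12 highest-scoring WT-only peaks, 3 had CAP-D3 in both genotypes, none had it in 1 genotype alone, 4 had no peak in any other list, and 3 had TFIIIC in all 4 libraries.

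WT-only CAP-H2 peaks whose CAP-D3 was also called in WT alone had a median CAP-H2 score of 88.7, against 82.8 for those without CAP-D3 and 99.0 for those with CAP-D3 in both genotypes. The highest of them, on chromosome 11 from 51817053 to 51818343, had a CAP-H2 score of 385.21 and a WT CAP-D3 score of 651.88, with 2324 bp to the nearest Rb1L/L CAP-H2 peak. The next lay on the same chromosome from 51765124 to 51766166 (CAP-H2 score 351, WT CAP-D3 score 289.17). In the opposite class, with CAP-D3 in Rb1L/L alone, the highest lay on chromosome 7 from 16507143 to 16508537, with a CAP-H2 score of 361.68 and an Rb1L/L CAP-D3 score of 325.5. Scores come from lists with different inputs and unknown depth, so they rank peaks within a list and do not compare genotypes.

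TFIIIC peaks lay at WT-only CAP-H2 peaks somewhat more often in the Rb1L/L libraries than in the WT libraries. The shares were 20.1% and 20.4% in Rb1L/L, against 16.5% and 17.9% in WT. Both Rb1L/L libraries were above both WT libraries, and the means were 20.2 ± 0.20% and 17.2 ± 1.02% (SD, n = 2 each), a difference of 3.04 percentage points (two-sided exact permutation p 0.333, the smallest that 2 libraries against 2 allow). At shared CAP-H2 peaks the order was the opposite, with 23.9% and 23.9% in Rb1L/L and 26.8% and 26.7% in WT, a difference of −2.82 points (exact permutation p 0.333). The Rb1L/L-only CAP-H2 peaks went the same way as the WT-only ones, with 17.8% and 18.2% in Rb1L/L and 15.6% and 16.5% in WT, a difference of 1.95 points (exact permutation p 0.333). With the same number of top-scoring peaks taken from each TFIIIC list, the difference at WT-only peaks was −1.44 points, so its sign depended on how many peaks were taken from each list.

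The ratio of WT-only to shared peaks within a library removes the length of its list in so far as it acts alike on both sets. On the log2 scale it was −0.25 and −0.23 in the Rb1L/L libraries, against −0.70 and −0.58 in the WT libraries. The groups did not overlap, and the difference was 0.40 (two-sided exact permutation p 0.333) and 0.42 at equal numbers of top-scoring peaks. CAP-H2 width bears on the level of this ratio. When TFIIIC was looked for in a fixed window of 500 bp on each side of the CAP-H2 midpoint, the log2 ratios were 0.02 and 0.06 in Rb1L/L and −0.45 and −0.30 in WT, with a difference of 0.41 (exact permutation p 0.333). In Rb1L/L libraries the lower share at WT-only peaks was thus not found with windows of equal width, and in WT libraries it was. The widths of TFIIIC peaks on chromosomes 1 to 19 summed to 262 and 266 Mb in Rb1L/L and to 147 and 186 Mb in WT. The overlap that such coverage gives at random positions was not computed, so how far these shares lie from it was not tested. Weighting by CAP-H2 score gave a like picture: shared peaks weighted to the score classes of the WT-only peaks had TFIIIC in 19.4% and 19.8% for Rb1L/L and in 19.8% and 20.4% for WT, so WT-only peaks had it 1.04 and 1.03 times as often in the Rb1L/L libraries and 0.834 and 0.876 times as often in the WT libraries.

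Split by CAP-H2 score, the TFIIIC difference at WT-only peaks, Rb1L/L minus WT, was 0 points in the highest class, with 37.3% and 36.1% in Rb1L/L and 36.1% and 37.3% in WT over 83 peaks. In the next 3 classes it was 2.18, 3.79 and 2.73 points, with groups that did not overlap (two-sided exact permutation p 0.333 each). At shared CAP-H2 peaks the differences from the highest class to the lowest were −6.51, −2.21, −0.17 and −0.18 points, and in the last 2 of these classes the groups overlapped. These values use the TFIIIC lists at full length, and the score classes were not compared at equal numbers of peaks, where the sign over all WT-only peaks was the opposite (−1.44 points).

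Few WT-only CAP-H2 peaks had TFIIIC in one genotype throughout and not in the other. All 4 libraries had a peak at 615 of them (6.13%) and none at 6591 (65.7%), against 9.47% and 58.8% of all WT CAP-H2 peaks. Both Rb1L/L libraries and no WT library had one at 242 (2.41%), where the background over all WT CAP-H2 peaks was 1.93%. Both WT libraries and no Rb1L/L library had one at 114 (1.14%), where it was 2.5%. Among Rb1L/L-only CAP-H2 peaks the same shares were 2.34% and 1.22%, close to those of the WT-only peaks. The highest-scoring of the 242 lay on chromosome 11 from 17120890 to 17121906, with TFIIIC scores of 198.96 and 198.85 in Rb1L/L and CAP-D3 scores of 3100 in Rb1L/L and 1524.6 in WT. The next of them, on chromosome 8 from 63761830 to 63763227 (CAP-H2 score 345.31), had TFIIIC scores of 126.2 and 285.2 in Rb1L/L and no CAP-D3. Of the 114, the highest was the peak on chromosome 7 from 16507143 to 16508537 that is also named above for CAP-D3, with TFIIIC scores of 91.21 and 488.34 in WT. It was followed by one on chromosome 9 from 61503038 to 61503888, with a CAP-H2 score of 276.66 and TFIIIC scores of 90.78 and 643.04 in WT.

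The direction of the TFIIIC difference was not the same at WT-only CAP-H2 peaks with CAP-D3 and without it. At the 524 peaks with CAP-D3 in both genotypes, TFIIIC was present at 15.5% and 15.5% in Rb1L/L, against 29.4% and 29.0% in WT, a difference of −13.7 points. At the 9076 peaks without CAP-D3 it was present at 20.7% and 20.9% in Rb1L/L, against 15.5% and 17.3% in WT, a difference of 4.40 points. Neither pair of groups overlapped, and both had a two-sided exact permutation p of 0.333. At equal numbers of top-scoring peaks the difference without CAP-D3 was −0.20 points, with groups that overlapped (exact permutation p of 1). The 288 peaks with CAP-D3 in WT alone had 10.8% and 14.2% in Rb1L/L and 21.5% and 16.7% in WT, and the 142 with CAP-D3 in Rb1L/L alone had 19.01% and 14.8% in Rb1L/L and 20.4% and 17.6% in WT, where the groups overlapped.

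Set as a log2 ratio within each library, CAP-D3 in both against no CAP-D3, TFIIIC gave −0.42 and −0.44 in Rb1L/L and 0.92 and 0.74 in WT. In Rb1L/L, TFIIIC thus lay less often at the WT-only CAP-H2 peaks with CAP-D3 than at those without, and in WT more often. The difference was −1.26 (two-sided exact permutation p 0.333) and −1.76 at equal numbers of top-scoring peaks. At shared CAP-H2 peaks the same ratio was 0.51 and 0.45 in Rb1L/L and 1.35 and 1.11 in WT, a difference of −0.75 (exact permutation p 0.333), so the difference between genotypes had the same sign there. The split by CAP-D3 was chosen after the values had been seen.

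**Figure D4:**
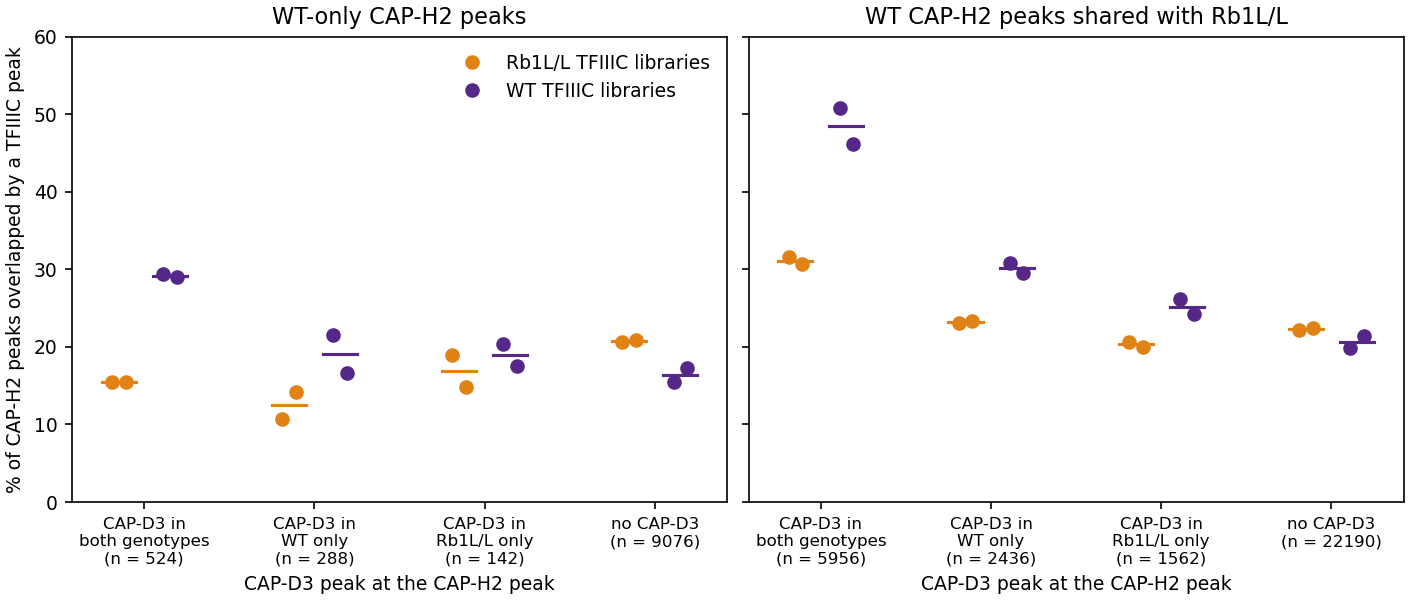
Percentage of WT-only (left) and shared (right) CAP-H2 peaks overlapped by a TFIIIC peak, split by the genotypes with a CAP-D3 peak there, for the 2 Rb1L/L libraries (orange) and the 2 WT libraries (purple), where each point is a library and each bar the mean of 2. At WT-only peaks with CAP-D3 in both genotypes the Rb1L/L libraries had 15.5% each and the WT libraries 29.4% and 29.0%, and without CAP-D3 the Rb1L/L libraries were the higher ones, with 20.7% and 20.9% against 15.5% and 17.3%.

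H3K27me3 was rare at WT-only CAP-H2 peaks. It covered 2.17% and 2.23% of them in the Rb1L/L libraries and 1.29% and 1.93% in the WT libraries, so the groups did not overlap (difference 0.59 points, two-sided exact permutation p 0.333). That difference was 0.27 points without WT library 1, which had the shortest list, and 0.92 points without WT library 2. Shared peaks had 2.41% and 1.65% in Rb1L/L and 1.02% and 1.64% in WT. Rb1L/L-only CAP-H2 peaks had 2.23% and 2.04% in Rb1L/L and 1.28% and 1.92% in WT, close to the WT-only values. Within a library, the log2 ratio of WT-only to shared peaks was −0.15 and 0.44 in Rb1L/L and 0.33 and 0.24 in WT, with groups that overlapped (exact permutation p of 1). Against shared peaks weighted to the same CAP-H2 score classes, WT-only peaks had H3K27me3 1.35 and 1.72 times as often in the Rb1L/L libraries and 1.65 and 1.66 times as often in the WT libraries.

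The H3K27me3 peaks at WT-only CAP-H2 peaks ranked high in their own lists and were often broad. Their median score rank was at percentile 85.7 and 91.1 in the Rb1L/L libraries and 85.1 and 85.7 in the WT libraries, against percentile 32.7 and 78.4 in Rb1L/L and 75.7 and 57.4 in WT at shared CAP-H2 peaks. Peaks wider than 5 kb were met at 17.9% and 21.9% of the WT-only CAP-H2 peaks with H3K27me3 in Rb1L/L and at 13.2% and 19.1% in WT. At shared CAP-H2 peaks with H3K27me3 they were met at 6.31% and 11.3% in Rb1L/L and at 3.95% and 7.78% in WT, and they made up 1.76% and 1.88% of the Rb1L/L lists and 1.25% and 1.45% of the WT lists. A broad peak is more easily hit than a narrow one, and it can be hit by several CAP-H2 peaks, which then share a source.

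H3K27me3 was most frequent at the WT-only CAP-H2 peaks that also had CAP-D3. With CAP-D3 in both genotypes it was present at 7.25% and 7.06% in Rb1L/L and at 5.15% and 7.06% in WT, and without CAP-D3 at 1.80% and 1.88% in Rb1L/L and at 1.00% and 1.54% in WT. Shared CAP-H2 peaks showed the same order. With CAP-D3 in both genotypes they had 6.26% and 3.54% in Rb1L/L and 2.65% and 3.83% in WT. Without CAP-D3 they had 1.20% and 1.02% in Rb1L/L and 0.568% and 0.946% in WT. All 4 libraries had H3K27me3 at 97 WT-only CAP-H2 peaks (0.967%), against 0.666% of all WT CAP-H2 peaks and 0.818% of Rb1L/L-only peaks. Among the 97, a peak on chromosome 7 from 144501330 to 144502518 (CAP-H2 score 338.19) had H3K27me3 scores of 1874.16 and 199.29 in Rb1L/L and of 464.36 and 517.06 in WT, with no CAP-D3 and no TFIIIC. One on chromosome 17 from 23876776 to 23877651 (CAP-H2 score 218.42) had CAP-D3 scores of 1961.7 in Rb1L/L and 2162.87 in WT. Both Rb1L/L libraries and no WT library had it at 22 (0.219%, 0.138 to 0.332, background 0.149%), led by a peak on chromosome 4 from 134702551 to 134703353 with H3K27me3 scores of 3100 and 136.85. Both WT libraries and no Rb1L/L library had it at 5 (0.0499%, 0.0162 to 0.116, background 0.0237%), of which 4 lay together on chromosome 8. Both intervals include the background. The 4 on chromosome 8 lay in the same H3K27me3 peak of each WT library, so the 5 are not independent and their interval is too narrow.

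That stretch of chromosome 8 lay in the 1 Mb window with the most WT-only CAP-H2 peaks. The window from 126000001 to 127000000 held 23 WT-only peaks among 52 WT CAP-H2 peaks, where the Rb1L/L list had 37 CAP-H2 peaks. The median over the 2319 windows with a WT CAP-H2 peak was 4 WT-only peaks. As many, 23 of 67, lay on chromosome 14 from 70000001 to 71000000. Windows on chromosome 12 from 86000001 to 87000000, on chromosome 17 from 78000001 to 79000000 and on chromosome 8 from 11000001 to 12000000 followed with 20 of 50, 20 of 57 and 20 of 65. Of the 23 WT-only peaks in the first window, 11 had WT CAP-D3 and 7 had Rb1L/L CAP-D3.

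Within this window, 7 WT-only CAP-H2 peaks fell in the 63139 bp from 126061171 to 126124309, the extent of a single H3K27me3 peak of WT library 2. This block was delimited after its values had been seen. CAP-H2 was called there 3 times in Rb1L/L and 10 times in WT, with WT scores of 65.32 to 145.86. CAP-D3 was called 8 times in Rb1L/L and 28 times in WT, with a median spacing of 1760.5 bp between the midpoints of neighbouring WT peaks. All 7 WT-only CAP-H2 peaks had WT CAP-D3, and 3 of them had Rb1L/L CAP-D3. H3K27me3 was called in neither Rb1L/L library, and in each WT library as 1 wide peak, of 27097 bp with a score of 3100 in library 1 and of 63139 bp with a score of 110.51 in library 2. TFIIIC had no peak there in any of the 4 libraries. The choice of the block fixed that CAP-H2 and H3K27me3 were called more in WT there. CAP-D3 was not used to set its edges, but its values were known when the block was chosen. WT CAP-D3 also shared an input with WT CAP-H2 and WT H3K27me3 library 2. The CAP-D3 calls are therefore not independent of the choice, and the part of the inputs in this result was not tested.

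**Figure D5:**
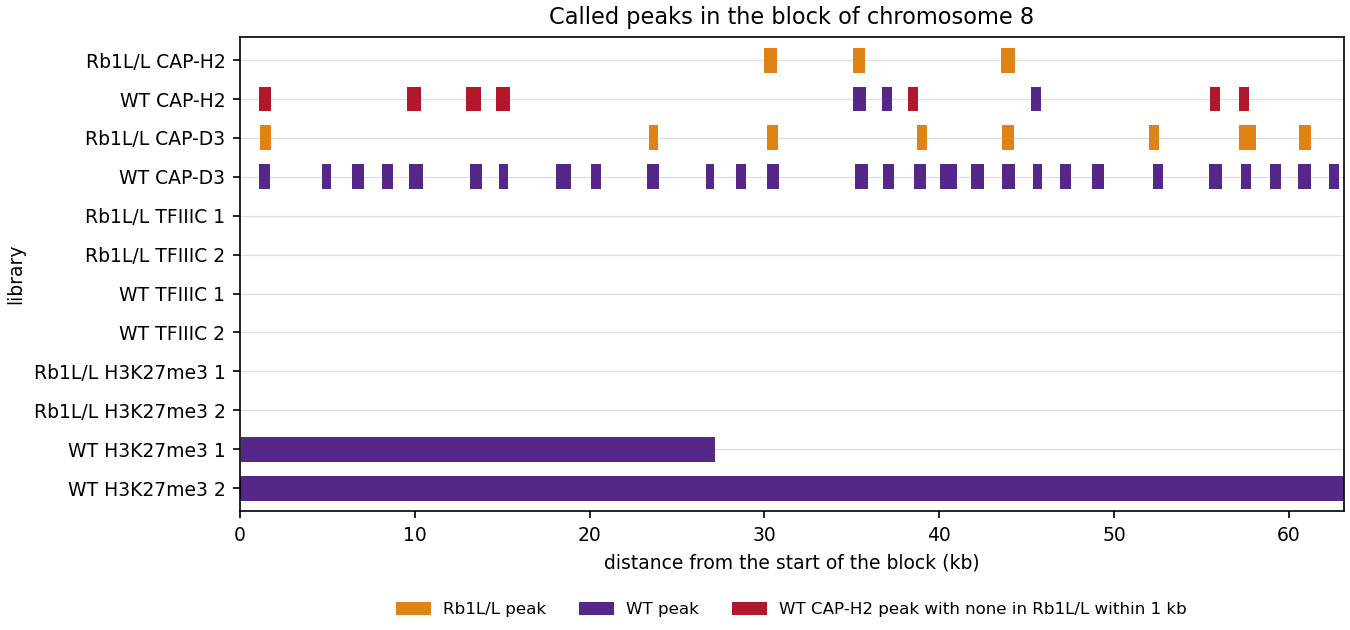
Called peaks of the 12 libraries in the block of chromosome 8, by distance in kb from its start, with Rb1L/L peaks in orange, WT peaks in purple and WT-only CAP-H2 peaks in red. The block holds 3 Rb1L/L and 10 WT CAP-H2 peaks, of which 7 are WT-only, 8 Rb1L/L and 28 WT CAP-D3 peaks, no TFIIIC peak and wide H3K27me3 peaks in the WT libraries alone.

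A few WT-only CAP-H2 peaks lay where almost every library had a peak, whatever the antibody. On chromosome 2, the WT-only peaks from 98504847 to 98505693 (score 391.86) and from 98506048 to 98507868 (score 63.22) had peaks in 9 and in all 10 of the other lists. CAP-D3 scored 3100 there in both Rb1L/L and WT. Between 98500001 and 98510000 the Rb1L/L CAP-H2 list was the one list of 12 with no peak, and the highest scores of the others lay between 391.86 and 3100. These positions were not checked in the reads or against a list of regions with signal in every experiment, so whether the calls there mark binding was not tested. One more WT-only peak had all 10 other lists, on chromosome 19 from 13426635 to 13427366, with a CAP-H2 score of 65.02. No others did, and 145 WT-only peaks (1.45%) had 5 or more, against 7.30% of shared peaks.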

How the data were processed

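ChIP-seq libraries of 4 antibodies were analysed as 12 peak lists, 1 per immunoprecipitated library; the 8 input samples have no list here. Per the submitters' processing notes, the tools were Bowtie2 2.3.0 and MACS 1.4.0rc2 and the build mm9; settings are not given in the sources used here. Each line of the deposited files holds the peak's position and a score that the authors' peak caller assigned, which was used only to order or select peaks of the same list. Read depth was not known here, so the precision of a library can be judged only from the length of its list.

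Groups came from the sample labels. Overlaps of at least 1 bp, gaps and shares were computed in Python 3.11.15 with numpy 2.4.6, pandas 2.3.3 and scipy 1.17.1, with exact (Clopper-Pearson) 95% binomial intervals. Values of the 4 TFIIIC or H3K27me3 libraries were compared with two-sided exact permutation tests; over the 72 computed the smallest p was 0.333 and the smallest Benjamini-Hochberg adjusted p 0.5. The overlap code was tested on simulated peaks. The regions, the lists and the splits were chosen with earlier results of these data known. Regions named are the 12 WT-only peaks with the highest score, the 6 highest of each class of other peaks, the 5 densest windows and the 3 longest runs, of which the leading ones are printed. Chromosome X and unplaced sequences were left out. Alternatives were other distances, scores and overlap rules, equal numbers of top-scoring peaks, a replicate block and leaving out each library.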

Additional observations from a re-analysis of the deposited data

Results flagged for a closer look

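Chromosome X was outside the chromosomes compared, and it held WT CAP-H2 peaks of the same kind. Of its 563 WT CAP-H2 peaks, 210 had no Rb1L/L CAP-H2 peak within 1 kb, or 37.3% (95% exact binomial interval 33.3 to 41.4), against 23.8% on chromosomes 1 to 19, where the highest share of a chromosome was 25.9%. On chromosomes 1 to 19 the share was 35.3% in 1 Mb windows with 1 to 5 WT CAP-H2 peaks. Peak density, scores and the reverse share were not compared between chromosome X and the others. The difference between chromosomes was not tested, and 1 library per genotype gives no replicate check.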

How the results depend on the processing

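The share of WT CAP-H2 peaks that were WT-only moved with the rule. It was 28.7% when only an overlapping Rb1L/L peak counted, 16.7% at a distance of 5 kb, 18.1% with a score of at least 100 in both CAP-H2 lists and 12.5% with that score in the WT list alone. Under the last 3 of these rules, CAP-D3 lay at 7.53%, 11.8% and 9.402% of WT-only peaks for Rb1L/L and at 8.87%, 14.0% and 11.2% for WT. Counting CAP-D3 within 1 kb gave 7.46% for Rb1L/L and 9.19% for WT, and asking for 50% of the CAP-H2 peak to be covered gave 5.77% and 6.86%. The share with Rb1L/L CAP-D3 among those with WT CAP-D3 was 68.0% at 5 kb. In every case listed, CAP-D3 was called at fewer than 15% of WT-only peaks. Leaving out WT CAP-H2 peaks with a peak in all 12 lists cannot touch a WT-only peak and changed the shared ones alone.

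At equal numbers of top-scoring peaks, the TFIIIC difference, Rb1L/L minus WT, was −1.44 points at WT-only peaks and −0.20 at those without CAP-D3. The difference between genotypes in the H3K27me3 log2 ratio changed sign at equal numbers (0.12), with 50% cover (0.084) and without Rb1L/L replicate 1 (0.16). The cause of these changes was not tested. The difference between genotypes in the TFIIIC log2 ratio of WT-only to shared peaks stayed positive under all 15 alternatives, between 0.22 and 0.56. The ratio itself was negative in all 4 libraries when overlaps of at least 1 bp were counted.

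Leaving out each library gave ranges of 2.32 to 3.76 points for TFIIIC at WT-only peaks, −13.9 to −13.5 with CAP-D3 in both and 3.49 to 5.30 without CAP-D3. For the genotype differences in the log2 ratios of TFIIIC it gave 0.34 to 0.46 against shared peaks and −1.35 to −1.17 between CAP-D3 classes. For H3K27me3 it gave 0.27 to 0.92 points and differences in log2 ratio of −0.44 to 0.16. The TFIIIC values with CAP-D3 in both moved more with other rules. Counting peaks within 1 kb gave −6.80 points and a log2 difference between CAP-D3 classes of −0.51. Asking for 50% cover gave −9.59 points and −1.54. A score of at least 100 in both CAP-H2 lists gave −18.1 points and −1.34.

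Libraries of the same number were paired in a replicate block, an exact sign-flip test with a p of 0.5 for the 6 differences other than the H3K27me3 log2 ratio, the smallest that 2 pairs allow. Blocked values equal the unpaired ones, at 3.04, −13.7, 4.40 and 0.59 points and differences in log2 ratio of 0.40, −1.26 and −0.14. Deviations of same-numbered libraries over 1 Mb windows correlated at 0.29 for TFIIIC and 0.22 for H3K27me3, and the labels do not say that a number marks a shared culture. The fixed window and the splits by CAP-D3 were added after seeing the data. Read depth and 1 library per genotype limit every CAP-H2 and CAP-D3 comparison.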
